A study of Mus musculus with 5 samples.

Results

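The comparison set mouse epiblast stem cells exposed for 3 h to a combination of 2 kinase inhibitors and a cytokine against cells kept for the same 3 h without them. It rests on 2 of the 5 arrays of the study, 1 for each condition, named by their titles as PCL-treated and untreated. The cells were of the E3 line, for which the label of the untreated sample adds a hybrid background. They grew with FGF2 (5 ng/ml) in KSR medium on a feeder layer of inactivated CF1 mouse fibroblasts until semiconfluent, when the medium was exchanged. The PCL culture received KSR medium with 1 uM PD0325901, 3 uM CHIR99021 and 1000 U/ml LIF, and the untreated culture received KSR medium with no addition, so both were without added FGF2. The other 3 arrays carried 1 agent each at the same dose (PD, CH and LIF) and are given beside the pair, and any difference of theirs from the untreated culture shares its single array with the PCL difference. Each condition is 1 array of 1 cell line, the labels name no step that removed the feeders, and no spread between cultures was measured.

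PD0325901 inhibits MEK, the kinase that activates ERK downstream of FGF receptors. CHIR99021 inhibits GSK3, which otherwise marks beta-catenin for degradation, so that beta-catenin can act with TCF/LEF factors on Wnt target genes. LIF acts through gp130 and JAK kinases on the transcription factor STAT3. The combination of both inhibitors with LIF is known as a medium that maintains mouse embryonic stem cells in the naive state, whereas epiblast stem cells represent the later, primed state and depend on FGF and Activin signals.

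Levels are quantile-normalized log2 intensities, a difference is PCL minus untreated on that scale, and the error is the bead-level standard error (SE) of the difference, with 1 array per group. A probe was detected when its detection p-value lay under 0.01. On either array 11182 probes passed, of which 10532 carried a gene name. They gave 7792 genes, each represented by its brightest probe, with 7141 detected on both arrays, 420 on the PCL array only and 231 on the untreated array only. The untreated array was the brightest of the 5, with a 75th percentile of the raw signal of 178 against 143 with PCL. The correlation of levels between these 2 arrays, over the probes detected on either, was 0.986, the lowest among the 10 pairs of arrays, which reached 0.993. The epiblast identity of the material was visible on both arrays, where all 15 epiblast stem cell markers with a probe were detected and Pou5f1, a core pluripotency factor, had levels of 12.36 (untreated) and 12.06 (PCL). Of these 15 markers 1 was at least 1.5-fold higher with PCL and 5 lower, with a median of -0.37. The shares of all kept genes were 2.68% and 3.58%.

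With PCL, 29 genes were at least 2-fold higher and 60 at least 2-fold lower, which is 0.372% and 0.77% of the genes kept. At a 1.5-fold limit 209 genes (2.68%) were higher and 279 (3.58%) lower. The median difference over all 7792 genes was 0.01, and the central 95% of genes lay between -0.67 and 0.59. With no replicate arrays these counts have no test. A gene detected on 1 of the 2 arrays has only a bound, set against the lowest detected level of the other array. Counted by such bounds, the numbers past 2-fold were 26 higher (0.334%) and 57 lower (0.732%), and at 1.5-fold 165 (2.12%) were higher and 230 (2.95%) lower. The counts and medians of gene groups given next to named genes use these bounds. Some genes, among them Gbx2, Sp5, Fgf8 and Cdx2, belong to several lists, so the list counts are not independent. Of all kept genes, 61.3% differed by less than the 95% limit of the bead-level error. Among the 89 genes past 2-fold 0 did, which the 2-fold rule fixed in advance, as their bead-level SE reached at most 0.26. The 3 genes beyond 4-fold higher (Sp5, Gbx2 and Klf2) and 5 beyond 4-fold lower (Egr1, Slc46a3, Dusp4, Lor and Dusp6) formed the extremes. After scaling to a common 75th percentile in place of quantile normalization, 46 genes were higher and 58 lower, so the share of higher genes among those past 2-fold was 44.2% against 32.6%.

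**Figure D1:**
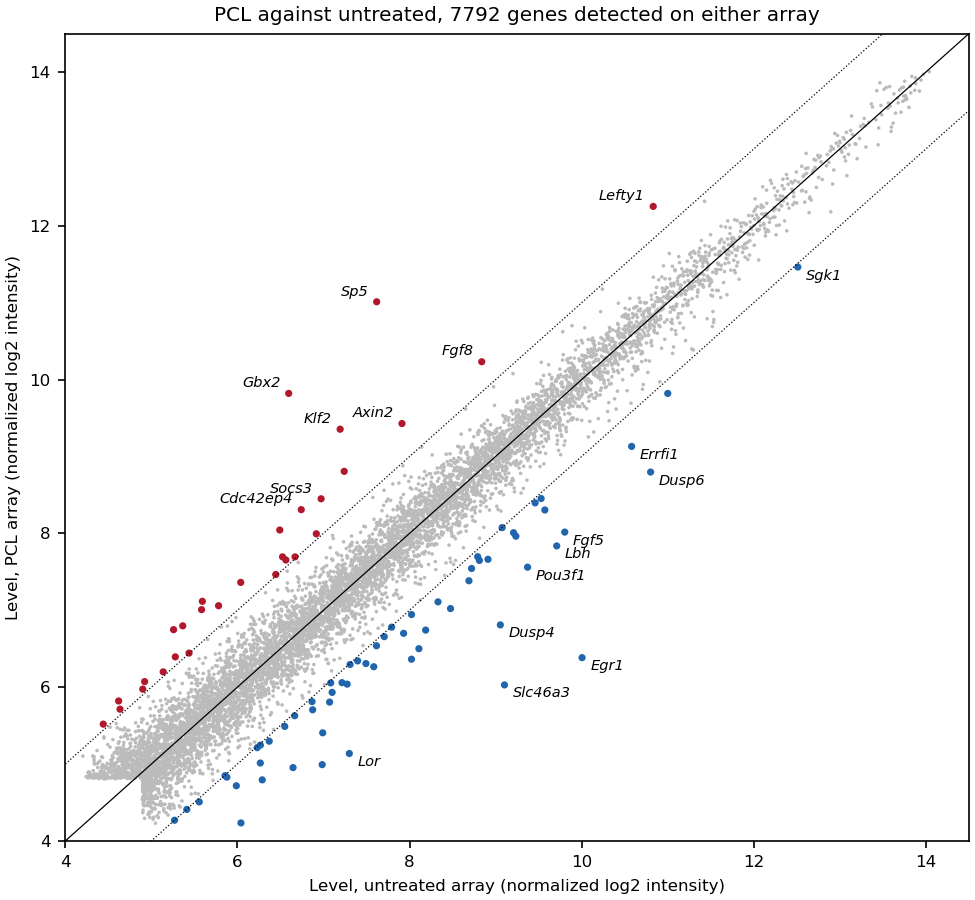
Normalized log2 intensity of 7792 genes on the untreated array (x axis) and the PCL array (y axis), 1 array each. Red and blue points are the 29 genes at least 2-fold higher and the 60 at least 2-fold lower with PCL, dotted lines mark 2-fold, and the solid line marks equality.

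The sequences upstream of 3 genes are shown because they hold the letters searched for the factors that the agents act on. Sp5 had the largest higher difference with PCL, Socs3 is the classical STAT3-induced gene, and Errfi1 was among the lowest genes and is shown for contrast. Each run is the 250 bases before the annotated start from RefSeq (GRCm38.p6), read 5′ to 3′ on the strand of the gene. Capitals mark the TCF/LEF letters CTTTGA or CTTTGT and the STAT letters TTCNNNGAA, searched on both strands. Sp5 lies at chr2:70474673-70474922 (plus strand), Socs3 at chr11:117969367-117969616 (minus strand), and the upstream one of 2 Errfi1 starts at chr4:150853546-150853795 (plus strand).
Sp5: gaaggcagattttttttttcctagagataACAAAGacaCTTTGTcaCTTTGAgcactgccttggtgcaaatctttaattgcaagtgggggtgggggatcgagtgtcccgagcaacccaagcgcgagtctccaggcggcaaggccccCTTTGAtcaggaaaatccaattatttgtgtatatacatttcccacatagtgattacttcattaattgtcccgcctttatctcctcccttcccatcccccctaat
Socs3: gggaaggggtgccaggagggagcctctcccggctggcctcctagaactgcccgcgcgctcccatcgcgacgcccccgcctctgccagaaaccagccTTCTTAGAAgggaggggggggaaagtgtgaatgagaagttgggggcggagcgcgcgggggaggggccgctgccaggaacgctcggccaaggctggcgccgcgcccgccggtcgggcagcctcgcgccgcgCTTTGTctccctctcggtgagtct
Errfi1: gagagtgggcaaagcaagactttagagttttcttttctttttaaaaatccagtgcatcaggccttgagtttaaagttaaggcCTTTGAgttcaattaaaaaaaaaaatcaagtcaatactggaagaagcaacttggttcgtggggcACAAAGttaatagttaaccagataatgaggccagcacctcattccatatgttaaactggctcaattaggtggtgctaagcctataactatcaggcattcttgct

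The Sp5 window held 4 TCF/LEF matches, 3 of them close together at 221, 212 and 204 bases before the start and 1 at 104 bases. Socs3 held 1 STAT match at 154 bases and 1 TCF/LEF match at 24 bases. Errfi1 held 2 TCF/LEF matches at the start shown and 0 at its other start. Such matches were common in general. A gene with several annotated starts was counted where the window of any of them held a match. The shares below therefore also depend on the number of starts per gene, which was not equalised between the groups. Of 27025 genes with a promoter in the reference, 30.8% held a TCF/LEF match and 8.13% a STAT match in that window, and of the 6383 kept genes with one, 24.8% and 7.33%. Among the genes at least 2-fold higher, 5 of the 22 with a promoter held a TCF/LEF match (22.7%) and 3 a STAT match. Among the genes at least 2-fold lower, 16 of 36 held a TCF/LEF match (44.4%) and 3 a STAT match. The letters CCGGAAGT of an ETS site occurred in 0 of these windows in either direction, against 7.36% of kept genes, and TGACTCA of AP-1 in 0 higher and 2 lower genes, Il11 and Lor, which is 5.56% against 3.96% of kept genes. A match is a description of letters and not a bound site.

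Sp5 encodes a zinc finger transcription factor and is a known Wnt target. Its level (probe ILMN_2641201) was 7.62 on the untreated array, 7.38 with PD, 10.64 with CH, 8.47 with LIF and 11.01 with PCL, a difference of 3.40 ± 0.08 or 10.5-fold. The arrays with CHIR99021 stood apart from the others, and PCL was above CH alone. Gbx2, a homeobox gene expressed in embryonic stem cells, followed with 3.23 ± 0.12 or 9.36-fold. It was at 6.60 untreated, 5.67 with PD, 8.37 with CH, 7.37 with LIF and 9.82 with PCL. It was lowest with the MEK inhibitor alone and highest with the combination that contains it. Klf2, a Krueppel-like factor of the naive state, was 4.47-fold higher (2.16 ± 0.09). It was at 7.19 untreated, 8.65 with PD, 7.45 with CH, 7.44 with LIF and 9.35 with PCL.

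The other genes among the 15 highest came from several functional classes. Cdc42ep4, an effector of the GTPase Cdc42, was at 6.74 untreated, at 6.86, 7.39 and 6.85 with PD, CH and LIF, and at 8.31 with PCL. None of the single agents brought it near the level with PCL. The same order held for Rasgrp1, an exchange factor that activates Ras, with 5.58 untreated, 6.35 with CH as the highest single agent, and 7.01 with PCL (1.42 ± 0.12). Gadd45g, a stress-inducible growth arrest gene, was higher by 1.57 ± 0.12, with 8.81 on the PCL array and 8.60 with PD alone. Fzd10, a Frizzled receptor for Wnt ligands, went from 6.49 untreated to 8.04 with PCL (1.55 ± 0.12), with 7.30 under PD and 7.20 under CH. A second probe of Fzd10 differed by 1.36.

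Bst2, the interferon-inducible surface protein tetherin, was 1.52 ± 0.23 higher with PCL, but it was highest with CH (7.22 against 7.12) and lowest untreated (5.59). Ahcy, which hydrolyses S-adenosylhomocysteine in the methyl cycle, was 1.49 ± 0.15 higher. Its untreated level of 5.26 lay close to the lowest detected level of that array, 4.89. Both genes were dim on the untreated array. Sox21 (1.43 ± 0.16), a SoxB factor, and the transcription factor genes Irx3 (1.17 ± 0.10), Irx5 (1.12 ± 0.14) and Elf3 (1.28 ± 0.15) were also at least 2-fold higher, each with its second highest level on the PD array. Lefty1, a secreted antagonist of Nodal, reached 12.25 with PCL and 12.21 with PD from 10.83 untreated. Fgf8 was at 10.23 with PCL from 8.84, and Chst15, a chondroitin sulfotransferase, at 7.36 from 6.04.

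**Figure D2:**
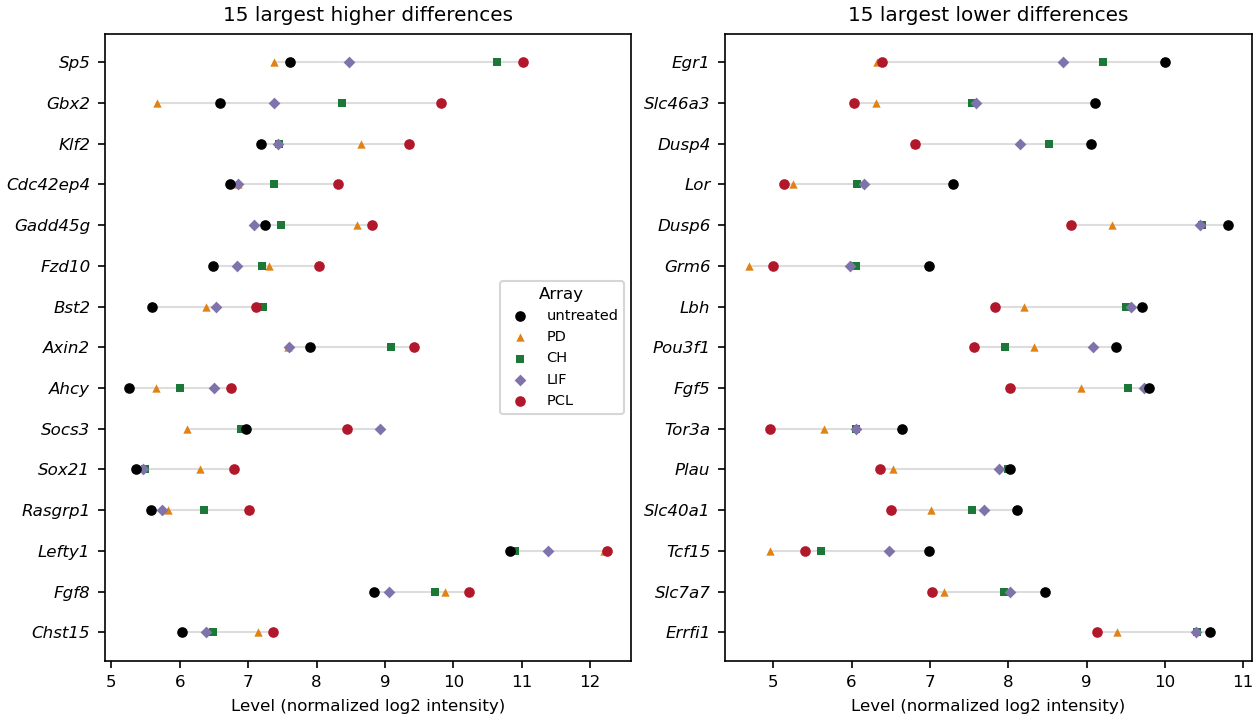
Level on each of the 5 arrays (normalized log2 intensity, x axis) of the 15 genes with the largest higher difference and the 15 with the largest lower difference between PCL (red) and untreated (black), among genes detected on both. Triangles, squares and diamonds are the arrays with PD, CH and LIF alone, and a grey line spans the 5 arrays. Sp5 and Axin2 are high on the 2 arrays with CHIR99021, and Egr1, Dusp4 and Plau are low on the 2 with PD0325901.

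The largest lower difference was that of Egr1, an immediate early transcription factor induced by ERK signalling. Egr1 (probe ILMN_2662926) was at 10.01 untreated, 6.32 with PD, 9.22 with CH, 8.70 with LIF and 6.38 with PCL, so that PCL was 12.3-fold lower (-3.62 ± 0.11). It lay at the level of PD alone. Its untreated level was the highest of the 5, and against the median of the 3 single-agent arrays the PCL difference was -2.32. The ERK phosphatases Dusp4 and Dusp6 went from 9.06 to 6.81 and from 10.80 to 8.80. With PD alone they were at 6.82 and 9.32, so Dusp6 was lower on the PCL array than on the PD array and Dusp4 was not. A second probe of Dusp4 differed by -1.65, and a second probe of Dusp6 by -1.70.

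Of the FGF/ERK target list, 19 of the 26 genes with a probe were kept, and 9 of these were at least 1.5-fold lower, 7 of them at least 2-fold, while 0 were at least 1.5-fold higher. The share of all kept genes was 2.95% lower at 1.5-fold and 0.732% at 2-fold. The list median was -0.52, against 0.00 for all genes. Arc, an immediate early gene, was not detected with PCL and at least 2.79-fold lower. The receptor Epha2 (-1.23 ± 0.10), the feedback inhibitors Spry4 (-1.17 ± 0.19) and Il17rd (-0.95 ± 0.17), and the ETS factor Etv1 (-1.16 ± 0.11) were lower as well. Etv1 was at 6.06 with PCL and 6.30 with PD, whereas Etv4 and Etv5 were less low with PCL (8.69 and 7.63) than with PD alone (8.51 and 7.29). Ccnd1, the cyclin of the G1 phase, had nearly the same level untreated (11.68) and with PCL (11.69), and 11.22 with PD. Errfi1, an inducible inhibitor of EGF receptors that is not in the list, was -1.45 ± 0.07 lower.

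Several of the lowest genes have no assigned place in these pathways. Slc46a3, a lysosomal transporter, was at 9.10 untreated, 6.31 with PD, 7.54 with CH, 7.59 with LIF and 6.03 with PCL. Lor, the cornified envelope protein loricrin, was at 7.30 untreated, 5.25, 6.07 and 6.15 with PD, CH and LIF, and 5.14 with PCL. Grm6, a metabotropic glutamate receptor, was at 6.98 untreated, 6.06 with CH, 5.98 with LIF and 4.99 with PCL. With PD it was not detected (4.69). The PCL levels of Lor and Grm6 lay close to the lowest detected level of that array, 4.81. All 3 genes were highest on the untreated array by a wide margin, and against the median of the single-agent arrays their differences were -1.51, -0.93 and -0.99. Lbh, a transcriptional cofactor gene, behaved otherwise, with 9.71 untreated, 9.50 with CH, 9.56 with LIF, 8.20 with PD and 7.84 with PCL. Its second probe differed by -1.56.

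Plau, the urokinase-type plasminogen activator, was at 8.02 untreated, 6.52 with PD and 6.36 with PCL, and close to the untreated level with CH and LIF (8.0 and 7.88). Slc40a1, the iron exporter ferroportin, was -1.61 ± 0.09 lower and Slc7a7, a subunit of a cationic amino acid transporter, -1.45 ± 0.13. Tor3a, of the torsin family, was -1.69 ± 0.11 lower on its brightest probe and -0.82 on another. Tcf15, a basic helix-loop-helix factor, was at 6.99 untreated, 4.96 with PD (not detected), 5.61 with CH, 6.48 with LIF and 5.41 with PCL. Its PCL level was thus close to CH alone, and against the median of the single-agent arrays it differed by only -0.21.

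Genes detected on 1 of the 2 arrays have a bound instead of a difference. Besides Arc, the largest bounds were those of Slc35d3 of the solute carrier family (at least 2.35-fold lower), and Pdk4, a pyruvate dehydrogenase kinase (at least 2.26-fold lower), followed by Pcbd1 (1.88-fold) and the chemokine Ccl2 (1.68-fold). In the other direction Lce1f was at least 1.90-fold higher, Sbno2 1.79-fold, the phosphatase Dusp8 1.77-fold, Zfp449 1.62-fold and Slc27a4 1.57-fold. Of the 89 genes counted above, 9 were detected on 1 array only, and for 6 of these the bound was under 2-fold.

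At the 2-fold limit the nearest genes inside were Rgma (1.01), Bcl9l (1.02) and Tfap2c (1.03) and, on the lower side, Kctd12b, Car2 and Fgf4, all at -1.0 by their measured levels. The nearest outside were Rhob (0.98), Cbx2 (0.97) and Gadd45b (0.97), and Tmem229a (just under 2-fold), Psors1c2 (-0.99) and Fgf15 (-0.98). Kctd12b, Fgf4 and Tmem229a were not detected with PCL, and the bounds of Kctd12b and Fgf4 were -0.46 and -0.60. The distance between these neighbours was smaller than their bead-level SE of 0.10 to 0.21.

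Wnt/beta-catenin targets diverged from each other. Of 13 kept genes of the 19 with a probe, 3 were at least 1.5-fold higher and 2 at least 1.5-fold lower, against 2.12% and 2.95% of all genes, and the median was 0.13. Besides Sp5, the feedback inhibitor Axin2 was higher (1.52 ± 0.08), with 7.91 untreated, 7.58 with PD, 9.09 with CH, 7.60 with LIF and 9.43 with PCL. The arrays without CHIR99021 did not overlap with the 2 that had it. The caudal homeobox gene Cdx2 was not detected untreated and at least 0.63 higher on the log2 scale. Sp8, also not detected untreated, had a bound of 0.30, below 1.5-fold. Wnt8a, a ligand of the primitive streak, was lower with PCL (8.53) than untreated (9.30) although it was at 9.72 with CH. The receptor gene Tnfrsf19 was at 7.57 untreated and 7.92 with PCL, between 6.64 with PD and 8.55 with CH. Lef1, a partner of beta-catenin, was at 5.31 untreated and 4.81 with PCL, with 4.70 under PD and 5.70 under CH. Fzd7 was at 9.09 untreated and 8.5 with PCL.

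Among the 18 kept genes of the list of Wnt ligands, receptors and antagonists, Fzd10 was the only one at least 1.5-fold higher. Wnt8a, Wnt5a and Fzd7 were at least 1.5-fold lower. The shares of all genes were 2.12% and 2.95%. Wnt5a, a ligand that mostly acts without beta-catenin, was at 7.34 untreated and 6.63 with PCL, close to PD alone (6.59). A second probe of Wnt5a differed by -0.36, which is under 1.5-fold. The list median was 0.12. Bcl9l, a coactivator of beta-catenin, was 1.02 ± 0.13 higher.

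Of the LIF/STAT3 targets 15 of 18 were kept, with 5 at least 1.5-fold higher, against 2.12% of all genes, 0 lower and a median of 0.28. Socs3, the feedback inhibitor of gp130 signalling (probe ILMN_2618176), was at 6.97 untreated, 6.11 with PD, 6.89 with CH, 8.92 with LIF and 8.45 with PCL, so that the combination was higher by 1.48 ± 0.08 but lay below LIF alone. Stat3 itself was at 6.92 untreated, 6.97 with PD, 7.04 with CH, 7.83 with LIF and 7.99 with PCL. It was 1.08 ± 0.13 higher, and 2 other probes differed by 1.15 and 0.81. The 2 arrays with LIF were above the 3 without it for both genes. Gbx2, Klf4 (0.75 ± 0.13) and Bcl3 (0.70 ± 0.20), an atypical I-kappa-B protein, made up the 5. Klf4 was at 5.42 untreated, 6.27 with PD, 5.15 with CH, 5.81 with LIF and 6.17 with PCL, so it was highest with PD. Its other probes, not detected untreated, differed by 0.95 and 0.37. The adhesion molecule Icam1 was at 7.53 with PCL against 8.15 with LIF and 7.25 untreated, and Klf5 at 8.15 against 8.37 and 7.65.

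**Figure D3:**
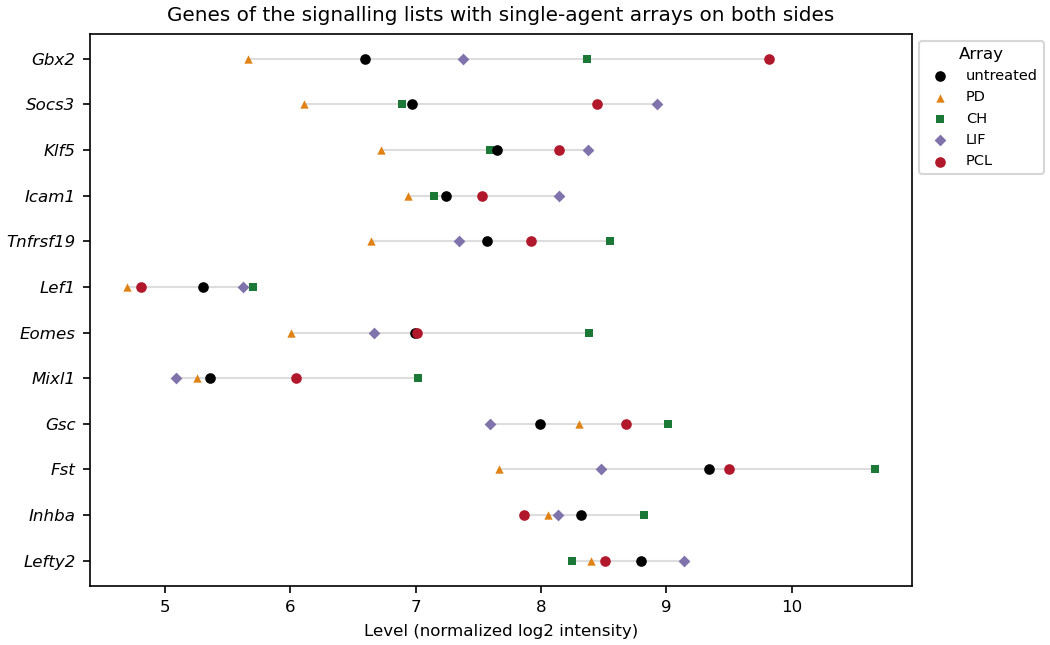
Level on each of the 5 arrays (normalized log2 intensity, x axis) of 12 genes of the signalling lists, picked after their values were seen because their levels with single agents lay on both sides of the untreated level. The PCL array (red) lies beyond all others for Gbx2, next to the untreated array (black) for Eomes and Fst, and between PD and untreated for Lef1.

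Markers of the naive state were mixed. Of 12 kept genes, Gbx2, Klf2 and Klf4 were at least 1.5-fold higher and Fgf4 lower, with a median of 0.14. The shares of all genes were 2.12% and 2.95%. Esrrb, an orphan nuclear receptor, was at 6.83 untreated, 6.28 with PD and 7.34 with PCL (0.51 ± 0.10), below the 1.5-fold limit. Zfp42 (0.21), Tbx3 (-0.11), Dppa3 (-0.26) and Dppa5a (-0.40) had smaller differences, while Nr0b1, Prdm14, Nr5a2 and Tcl1 were not detected on either array. Fgf4 was not detected with PCL, and its bound was only -0.60.

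Of the core pluripotency genes 11 of 12 were kept, and the median was -0.29. Nanog was 0.88 ± 0.08 higher, with 9.20 untreated, 10.10 with PD, 9.98 with CH, 9.50 with LIF and 10.08 with PCL. The PCL level thus lay between those of the 2 inhibitors alone. Utf1 (-0.72 ± 0.10) and Dppa4 (-0.69 ± 0.09) were at least 1.5-fold lower, against 2.95% of all genes. Nanog alone was at least 1.5-fold higher, against 2.12%. Sox2 was at 7.39 from 7.95, and Pou5f1 differed by -0.29 ± 0.10 on one probe and -0.44 on another.

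The primed epiblast list had the lowest median of the lists, -0.58 over 12 kept genes. At least 1.5-fold lower were 6 genes, of which 4 were at least 2-fold, and 2 were at least 2-fold higher. Over all genes 2.95% were lower at 1.5-fold, 0.732% lower at 2-fold and 0.334% higher at 2-fold. Pou3f1, the POU factor Oct6, was at 9.37 untreated, 8.33 with PD, 7.96 with CH, 9.08 with LIF and 7.56 with PCL (-1.81 ± 0.12). Fgf5, a ligand of the post-implantation epiblast, was at 9.80 untreated, 8.93 with PD, 9.53 with CH, 9.73 with LIF and 8.02 with PCL (-1.79 ± 0.08). Otx2, a homeobox factor of primed cells, was at 10.91 untreated, between 10.53 and 10.75 with each single agent, and at 9.97 with PCL (-0.94 ± 0.07). For all 3 of these genes PCL was the lowest array. The zinc finger gene Sall2 (-1.32 ± 0.10), the forkhead factor Foxa2 (-1.25 ± 0.17) and Fgf15 (-0.98 ± 0.13) were also lowest with PCL. Fgf8 and Lefty1 were the 2 higher genes, and Zic2 (0.07), Nodal (0.20) and Dnmt3b (0.23) were close to 0.

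Primitive streak genes differed in how their PCL level stood to that with CH alone. Eomes, a T-box factor, was at 7.0 untreated, 6.0 with PD, 8.38 with CH, 6.67 with LIF and 7.01 with PCL. Mixl1 was at 5.36 untreated, 7.02 with CH and 6.05 with PCL, and Gsc, the homeobox gene goosecoid, at 7.99, 9.01 and 8.68. Each of these 3 genes was highest on the CH array and lower on the PCL array. In contrast, Sp5 (10.64 with CH and 11.01 with PCL), Fgf8 (9.74 and 10.23) and Cdx2 (4.91 and 5.52) were highest on the PCL array. Lhx1 was lower with PCL (-1.02 ± 0.19), and its levels with PD, CH and LIF (5.72, 5.55 and 5.65) were all below the untreated 6.27. Among the 14 kept genes of this list 5 were at least 1.5-fold higher (Mixl1, Gsc, Fgf8, Cdx2 and Sp5) and 2 lower (Foxa2 and Lhx1). The shares of all genes were 2.12% and 2.95%, and the list median was 0.15.

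Secreted regulators of Nodal and Activin signals behaved differently from each other. The activin-binding protein follistatin (Fst) was at 9.34 untreated, 7.67 with PD, 10.66 with CH, 8.47 with LIF and 9.50 with PCL, so that the combination lay within 0.16 ± 0.08 of the untreated culture although the single agents covered almost 3 log2 units. Lefty2 was at 8.80 untreated and 8.51 with PCL, in contrast to Lefty1. Of the 13 kept genes of this pathway Lefty1 alone was past 1.5-fold, and the median was -0.07. Over all genes 2.12% were higher at 1.5-fold and 2.95% lower. Among 9 kept BMP/Id genes 0 passed 1.5-fold, Id2 had a bound of -0.30, and the median was -0.09.

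Stress-responsive genes were higher in part. Of 17 kept, 5 were at least 1.5-fold higher and 1 lower, against 2.12% and 2.95% of all genes, with a median of 0.31. Gadd45g, Gadd45b (0.97 ± 0.15), the mTOR regulator Ddit4 (0.93 ± 0.08), the AP-1 subunit Jun (0.81 ± 0.15) and the small heat shock protein Hspb1 (0.78 ± 0.13) were the 5. Atf3 was not detected untreated and had a bound of 0.36, below 1.5-fold. Gadd45a, of the same family, was the lower gene, at 8.79 untreated and 7.70 with PCL (-1.10 ± 0.14). Its level with PD alone was 7.76.

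Of 11 neural genes with a probe 4 were kept, and Gbx2, Sox21 and Irx3 were at least 2-fold higher while the intermediate filament gene Nes differed by -0.22. The median of these 4 was 1.30. Over all genes 0.334% were at least 2-fold higher. Sox1, Pax6 and Zic1 were not detected on either array.

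Basic cell functions differed little. Among cyclins and CDK inhibitors 0 of 12 genes passed 1.5-fold, Cdkn1a (0.54) was the highest, and the median was -0.01. The cholesterol synthesis list (0 of 13, median 0.05) and the reference genes (0 of 11, median 0.00, from -0.25 to 0.33) gave the same picture. The Notch list kept 4 genes, of which the ligand Jag2 was higher (0.72 ± 0.16), and its median was 0.12. The list of MYC and ribosome biogenesis genes had a median of -0.05 over 14 genes, with Nop10 as the only gene past 1.5-fold. In the chromatin and DNA methylation list Ahcy was the only one of 15, and the median was 0.09. Among 9 kept interferon genes Bst2 was at least 1.5-fold higher, Irgm1 was lower (-0.88 ± 0.07, and -0.59 on a second probe), and the median was 0.00. Glycolytic enzymes of the hypoxia and glycolysis list were close to 0, with Ldha at 0.07 and Gapdh at 0.11, while Ndrg1 (-1.31 ± 0.10) and Angptl4 (-1.27 ± 0.09), known as hypoxia-inducible, were lower, and the median of the 15 kept was 0.00. Of 14 kept growth factor receptors and ligands 2 were at least 1.5-fold higher, Fgf8 and the chemokine Cxcl12 (0.97 ± 0.10), and 5 lower, Fgf4, Fgf5, Fgf15, Pdgfra and Epha2, with a median of -0.15. For each list of this paragraph, the shares of all genes past 1.5-fold were 2.12% higher and 2.95% lower.

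**Figure D4:**
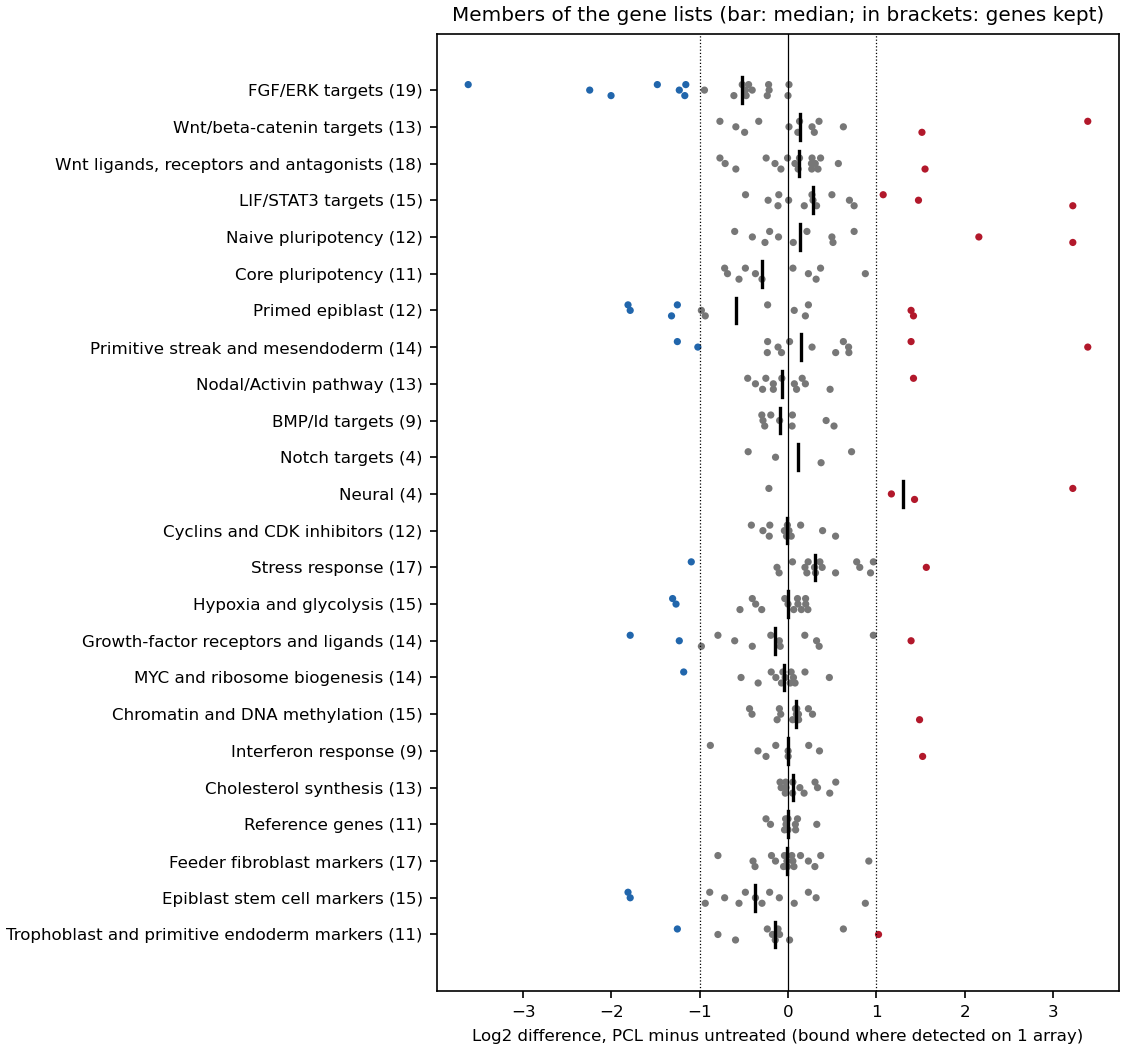
Log2 difference, PCL minus untreated (x axis), or its bound for genes detected on 1 array, of each kept member of 24 gene lists, 1 point per gene and 1 array per condition. Black bars are list medians, red and blue points are at least 2-fold higher and lower, and the number of kept genes stands in brackets. The primed epiblast and FGF/ERK medians are lowest at -0.58 and -0.52.

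Feeder cells share the RNA, and in such bulk material fewer cells of a type and less RNA per cell cannot be told apart. Of 23 feeder fibroblast markers with a probe 17 were kept, Col1a2, Col3a1, Postn, Pdgfrb, Fap and S100a4 were not detected on either array, and the median was -0.01. The collagen gene Col1a1 was at 7.83 untreated and 8.20 with PCL. The receptor Pdgfra (-0.79 ± 0.15) was lower and Timp3 (0.92 ± 0.12) higher, against 2.95% and 2.12% of all genes at 1.5-fold. Another probe of Timp3, not detected untreated, differed by 0.06. The summed raw signal of the 17 was 13064 untreated and 9267 with PCL, and that of the 11 reference genes 64997 and 54052. Secreted factors that fibroblasts can also make differed in both directions. Lower were the chemokines Ccl7 (-1.20 ± 0.09) and Ccl2, the cytokine Il11 (-1.24 ± 0.16), the growth factor Fgf7 (-1.27 ± 0.15) and Plau. The chemokine Cxcl12 was higher (0.97 ± 0.10). Which cells carried these transcripts was not measured, and the part of the feeders in these differences was not tested. Of 11 kept trophoblast and primitive endoderm markers, Tfap2c (1.03 ± 0.10) and Cdx2 were at least 1.5-fold higher and Foxa2, Pdgfra and Dab2 (-0.59) lower. The shares of all genes were 2.12% and 2.95%. The list median was -0.14, and Elf5, Gata3, Hand1, Gata4, Sox7 and Afp were not detected on either array.

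Other probes of the same genes offered a second reading of the same RNA. Of the 89 genes past 2-fold, 18 had another probe detected on both arrays, 21 probes in all. All 21 differed in the same direction as the brightest probe by at least 1.5-fold, and 9 by at least 2-fold. Another 8 probes, those of Elf3 and Sema7a among them, were detected on 1 array only and are not counted. By measured levels they had the same direction, but 2 of them, of Elf3 (0.51) and Sema7a (-0.52), were under 1.5-fold. The probes set aside thus hold all those that missed this limit. Over all 2734 other probes detected on either array, the median distance to the brightest probe of the gene was 0.18. This distance carries the bead-level error of both probes. The median SE of 0.12 is that of 1 difference on the brightest probes, so the 2 values are not directly comparable. Other probes of a gene share the RNA and the array and are no replicate cultures.

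**Figure D5:**
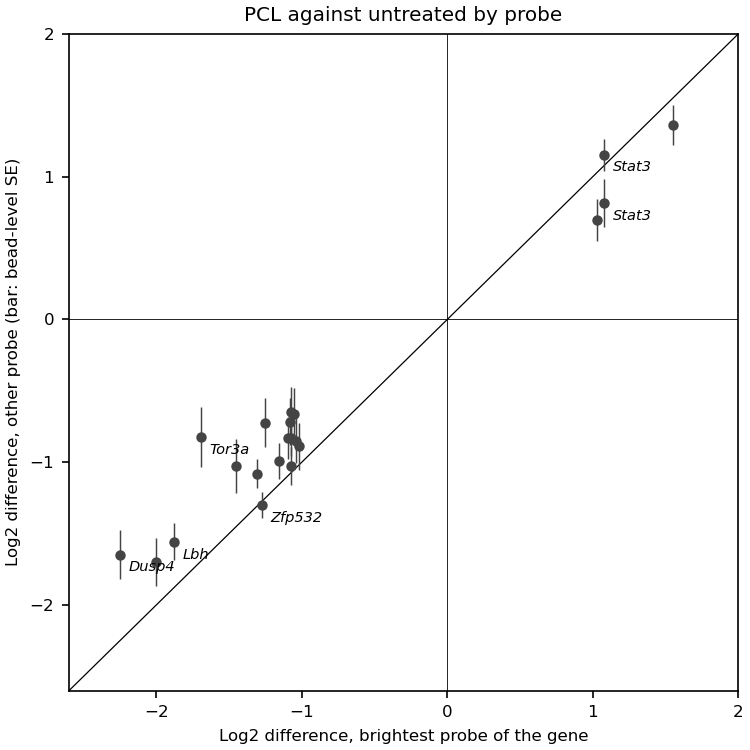
Log2 difference, PCL minus untreated, of the brightest probe of a gene (x axis) and of each other probe of that gene (y axis), for 21 probes of 18 genes past 2-fold that were detected on both arrays, with bead-level SE as bars. All points lie in the quadrants of equal direction, and most other probes of lower genes lie nearer to 0 than the brightest probe.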

How the data were processed

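Total RNA of 5 cultures was labelled with Cy-3 and hybridised to mouse bead arrays, 1 per condition, and exported with BeadStudio, per the submitters' processing notes. Per the file headers, the deposited scanner tables give a linear signal intensity for each of 25697 probes, its standard error over beads and a detection p-value. The authors also deposited processed intensity values, whole numbers with a median of 65 on every array, with no normalization named by the labels or headers. They served as an alternative.

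Signals were background-corrected with the normexp model of limma 3.58.1 (R 4.3.3), with negative-control levels that limma derives from detection p-values, and an offset of 16, then quantile-normalized over the 5 arrays and taken to log2. The offset compresses differences of dim genes. Bead-level standard errors leave out culture, extraction and hybridisation, and the number of arrays limits the precision. Platform annotation named 23978 probes with 1 symbol and 0 with several, and 1719 were unnamed. Gene IDs of 23962 matched the reference. A gene detected on 1 of the 2 arrays was given as a bound, set by the dimmest detected level of the array that missed it (4.89 untreated, 4.81 with PCL), and group counts use these bounds. The steps were tested on simulated data.

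Named genes were the 15 highest and 15 lowest among those detected on both arrays, the 5 largest bounds each way, and members of 25 lists with 414 genes, of which 370 had a named probe. The results of 1 list are not reported here. Genes named beyond that were picked after their values were seen. Members and lists were chosen with earlier results of these data known. With 1 array a group, no test was made.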

Additional observations from a re-analysis of the deposited data

Results flagged for a closer look

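Probes without a gene name lay outside the comparisons above. Of 650 that were detected on either array, 2 were at least 2-fold higher and 3 at least 2-fold lower with PCL. The highest was ILMN_3016674, at 6.97 untreated and 8.11 with PCL (1.14 ± 0.08), and the lowest ILMN_2595857, at 8.07 and 6.89 (-1.17 ± 0.09). In both directions together this is 0.769% of these probes, against 1.14% of the named genes. The named share counts only the brightest probe of each gene, so these shares are not directly comparable.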

How the results depend on the processing

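The 29 higher and 60 lower genes became 10 and 16 without background correction, 11 and 29 with an offset of 50, 46 and 58 when the 75th percentiles were equalised instead, 65 and 101 in the authors' processed values, and 15 and 20 against the median of the single-agent arrays. Quantile normalization of the 2 arrays alone gave 31 and 63, detection on both arrays 26 and 54, the mean of a gene's detected probes 27 and 51, and a detection limit of 0.05 or none 29 and 60. Bounds for genes detected on 1 array, a choice made after the data were seen, gave 26 and 57. Of the 89 genes, 26 were past 2-fold without background correction, 85 in the authors' values and 31 against the single-agent median. The 15 highest and 15 lowest genes kept their direction under all 11 alternatives. The detection limits and the bounds could not alter these genes, which were chosen among those detected on both arrays. All 30 stayed past 2-fold except under an offset of 50 (26), no background correction (22) and the single-agent median (19). The medians of 3 lists had the other sign in places. Without a detection filter, which adds undetected genes, the primitive streak median was -0.0279, the neural -0.0327 and the Notch -0.0476, and with a detection limit of 0.05 the Notch median was -0.14. No array can be left out of a comparison of 1 array with 1. Signal over background limits genes dim on either array, such as Ahcy, Bst2, Lor, Grm6 and Tor3a.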

Other observations

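Gene families, grouped by symbol after the values had been seen, show members that differ in opposite directions. For all families below, the shares of all genes past 1.5-fold, counted with bounds, were 2.12% higher and 2.95% lower. Of 14 kept dual-specificity phosphatases, Dusp4 (-2.25) and Dusp6 (-2.0) were at least 1.5-fold lower, while Dusp10 (0.69) and Dusp8 (not detected untreated, with a bound of 0.82) were at least 1.5-fold higher. Of 12 ETS factors, Etv1 (-1.16) and Etv2 (-0.70) were lower and Elf3 (1.28) and Elf2 (0.62) higher. Among 9 Fgf ligands, Fgf5, Fgf7 (-1.27), Fgf4 (not detected with PCL) and Fgf15 (-0.98) were lower and Fgf8 (1.39) higher. Of the receptor and ligand families of Eph signalling, Epha1 (-1.08) and Epha2 (-1.23) were lower, and the ephrins Efnb1 (0.87) and Efna4 (0.62) higher.

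The 3 Iroquois genes detected on both arrays had positive differences, from 0.29 (Irx2) to 1.17 (Irx3), and all 4 detected Cdc42 effectors as well, from 0.13 (Cdc42ep5) to 1.57 (Cdc42ep4), with Cdc42ep2 at 0.75. Of 8 chemokines, Ccl7 (-1.20), Cxcl1 (-0.75) and Ccl2 (not detected with PCL, with a bound of -0.75) were at least 1.5-fold lower, and Cxcl12 (0.97) was higher. Counted with bounds, 9 of 122 solute carriers were at least 1.5-fold lower and 6 higher, against 2.95% and 2.12% of all genes, with Slc46a3 at -3.07 and Slc25a44 at 0.82 as the extremes and a median of 0.01. Polycomb gene Cbx2 was higher (0.97) and Cbx5 lower (-0.64).

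Single members of large complexes stood apart from the rest. Uqcrb (-1.22 ± 0.09) and Uqcrh (-0.79) were lower, while the 5 other kept subunits of respiratory complex III lay between -0.18 and 0.33. Nop10 was -1.18 ± 0.08 lower, whereas Gar1 (0.19) and Nhp2 (-0.10), its partners in the box H/ACA ribonucleoprotein, were near 0. Of 53 cytosolic ribosomal protein genes, Rpl30 (-0.88) was the only one past 1.5-fold, and the median was -0.07. The cause was not tested.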
